A study of Rattus norvegicus with 18 samples.

Results

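The 9 genes described here are Grm6, Trpm1, Gpr179, Nyx, Isl1, Cabp5, Pcp2, Vsx1 and Grik1, which are in common use as markers of retinal bipolar cells. They were chosen by name, and all 9 were found among the 32285 genes of the retina count table and the 32552 genes of the RPE/choroid (retinal pigment epithelium and choroid) table. The libraries came from wild-type (WT) female Fischer 344 rats, an inbred strain used in studies of aging, and neural retina and RPE/choroid were taken from the opened eye in turn. In each tissue there were 3 libraries of young rats (4 months old in the labels), 3 of untreated aged rats (24 months old, water only) and 3 of aged rats given 8-aminoguanine (8-AG, a purine base analog) in drinking water. The treated rats received 5 mg/kg/day for 8 weeks from 22 months of age and were also 24 months old when the tissue was taken. The labels name the RNA of the 3 libraries of 8-AG treated retina as total RNA and that of the other 15 libraries as polyA RNA, while the protocol describes poly-A capture for retina, so this difference in labelling cannot be told apart from the treatment. In RPE/choroid, libraries 1 and 2 of the young group carry one number with the letters L and R, and so do libraries 1 and 2 of the aged group. The labels leave it unsaid whether such a pair is the left and right eye of a single rat. Where libraries are not from separate animals, p-values cover only the spread between libraries.

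Bipolar cells carry the signal of rods and cones to amacrine and ganglion cells. ON bipolar cells, which include the rod bipolar cells, sense photoreceptor glutamate through the metabotropic receptor mGluR6 (Grm6). The receptor acts through a G protein on the cation channel TRPM1, which opens when glutamate falls in light. GPR179 is an orphan receptor that holds the RGS proteins of this cascade, and nyctalopin (Nyx) is a leucine-rich repeat protein needed for the channel to sit at the dendritic tip. Human mutations in any of these genes cause complete congenital stationary night blindness. OFF bipolar cells instead use kainate and AMPA receptors, one subunit of which is GluK1 (Grik1). Isl1 is a LIM homeodomain factor of ON bipolar cells that is also used by some amacrine cells and by ganglion cells, and Vsx1 is a homeodomain factor of some cone bipolar cells. Cabp5 is a calcium-binding protein of rod bipolar cells and some cone bipolar cells. Pcp2 (L7) is a regulator of G protein signaling found in bipolar cells and cerebellar Purkinje cells.

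The homeodomain factors OTX2 and CRX bind TAATCC, and TAATTA is a core that many other homeodomain proteins bind, so both were looked for in the 300 bases around the annotated start of each gene, on both strands. RefSeq promoter sequences on GRCr8 matched 7 of the 9 genes, and Cabp5 and Gpr179 had no entry. TAATCC was in 2 of the 7, Trpm1 and Nyx, beside 7.17% of all 33469 promoters of this length. TAATTA was in 0 of 7, beside 5.36% of all promoters. The promoters of Trpm1 and Nyx are shown for the match, and that of Grm6 for the receptor that controls the TRPM1 channel and has no match. Capitals mark TAATCC or its reverse complement GGATTA, on chr1:127130436-127130735 (plus strand), chrX:11974667-11974966 (minus strand) and chr10:35668753-35669052 (plus strand) respectively.
Trpm1: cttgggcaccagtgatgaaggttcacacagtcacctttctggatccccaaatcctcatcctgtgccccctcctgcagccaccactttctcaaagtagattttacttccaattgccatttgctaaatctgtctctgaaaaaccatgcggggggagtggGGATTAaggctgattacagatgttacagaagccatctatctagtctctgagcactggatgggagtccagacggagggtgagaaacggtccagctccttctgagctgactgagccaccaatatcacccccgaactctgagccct
Nyx: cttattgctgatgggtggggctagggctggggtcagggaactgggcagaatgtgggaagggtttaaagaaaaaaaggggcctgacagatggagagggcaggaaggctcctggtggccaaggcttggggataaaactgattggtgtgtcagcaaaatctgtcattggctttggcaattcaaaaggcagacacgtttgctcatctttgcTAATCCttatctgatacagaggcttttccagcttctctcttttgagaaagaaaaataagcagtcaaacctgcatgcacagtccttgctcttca
Grm6: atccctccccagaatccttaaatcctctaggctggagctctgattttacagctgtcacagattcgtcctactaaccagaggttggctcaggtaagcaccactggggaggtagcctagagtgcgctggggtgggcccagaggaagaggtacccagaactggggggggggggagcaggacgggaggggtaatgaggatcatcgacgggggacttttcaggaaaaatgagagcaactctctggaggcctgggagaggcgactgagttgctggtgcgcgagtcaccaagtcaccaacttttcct
The match began at position 158 of the window in Trpm1, on the strand opposite to the gene, and at position 208 in Nyx, on the strand of the gene.

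Retina libraries held 12283458 to 15644346 counts and RPE/choroid libraries 28573828 to 48203050. Levels are given in CPM, which scale counts to the library total after TMM correction, and they are not divided by gene length, so they compare libraries and not genes. The fewest counts of any of the 9 genes in a retina library were 171 (Nyx) and the most 7432 (Trpm1). Rod photoreceptor markers, summed over 11 genes, stood at 55719 to 60536 CPM in young, 34250 to 38738 in aged and 35895 to 45948 in 8-AG treated retina. Summed markers of 10 amacrine cell genes stood at 2329 to 2590 CPM over the 3 groups. Summed markers of 10 RPE genes stood at 22.5 to 346 CPM in retina and at 5821 to 18522 CPM in RPE/choroid. Crystallins and other lens genes, which mark carry-over from the lens, summed to 2751, 6053 and 146 CPM in young retina, to at most 24.0 CPM in aged retina and to 1710 CPM in 8-AG library 1. The part of these shifts in the values below was not tested, and in bulk tissue fewer bipolar cells and less RNA per cell cannot be told apart.

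The comparison of aged with young retina asks what age changes. Cabp5 rose in aged retina, and none of the other 8 genes passed the test. Cabp5 was at 41.5, 44.2 and 47.3 CPM in young and at 67.0, 68.8 and 59.0 CPM in aged libraries. Every aged library stood above every young one, and the fold was 1.46 (log2 fold change 0.55, standard error 0.08, edgeR quasi-likelihood adjusted p = 0.0019). That is 1 of 9 genes higher, in a comparison where 7.29% of 14588 tested genes were called higher and 7.26% lower. The adjusted p of Cabp5 stayed between 6.1e-06 and 0.013 over the alternatives and the fits without 1 library. None of the 9 genes passed the rule of the study, a fold over 1.5 with an unadjusted P under 0.05, which 8.84% of tested genes passed. Cabp5, close to this fold, passed it with library totals (log2 fold change 0.67), without young library 3 (0.59) and without aged library 3 (0.61), and Gpr179 passed it without aged library 1 (-0.70).

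**Figure D1:**
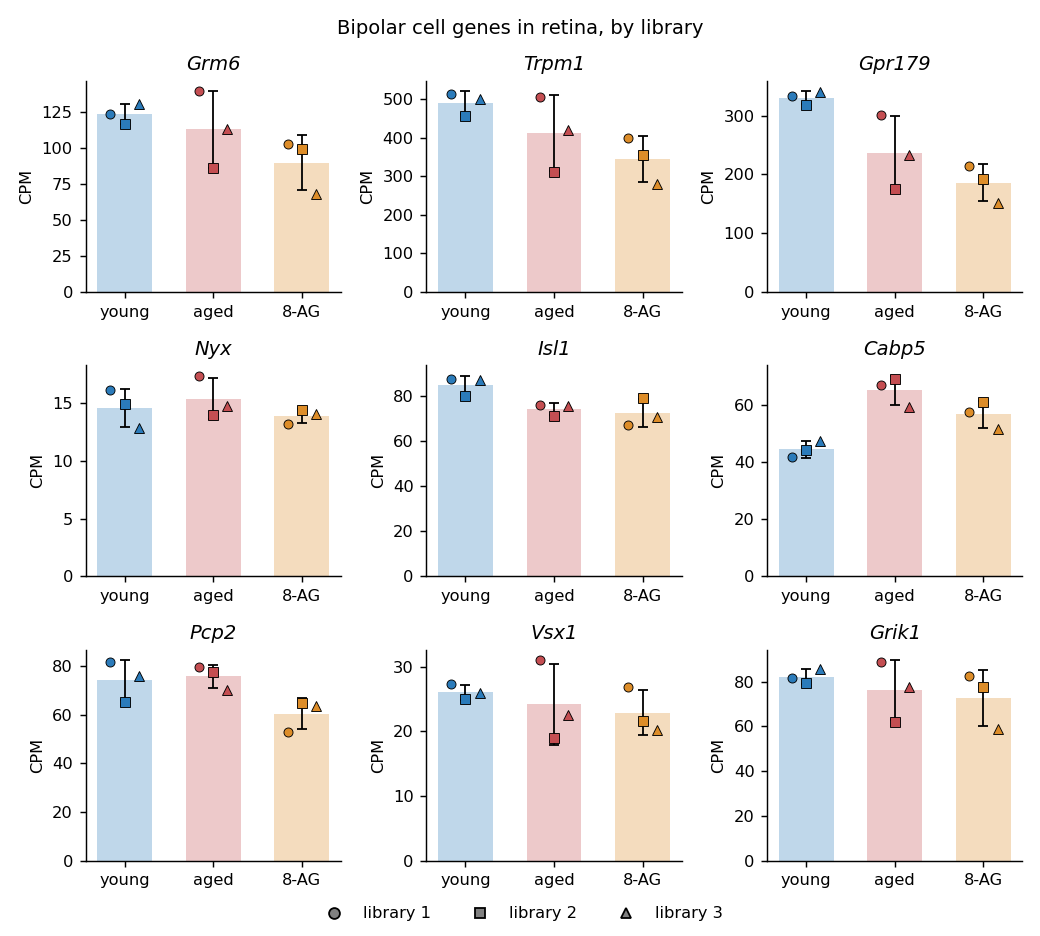
Level of each gene in CPM in each retina library, grouped by age and treatment. Points are libraries, bars are means and error bars are SD (n = 3), all from 0. Cabp5 in aged retina lies at 59.0 to 68.8 CPM against 41.5 to 47.3 in young, and Gpr179 in 8-AG treated retina at 152 to 214 against 319 to 340.3 in young.

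Of the ON cascade genes, Gpr179, Trpm1 and Grm6 were spread widely among the aged libraries. For Nyx the highest library exceeded the lowest by a factor of 1.25 in aged and in young retina alike. Gpr179 was at 333, 319 and 340.3 CPM in young and at 301, 174 and 233 CPM in aged libraries. Every aged library lay below every young one, but the change of -0.49 on the log2 scale (standard error 0.20) had an adjusted p of 0.19. Without aged library 1 it was -0.70 and passed, with an adjusted p of 0.012. Trpm1 was at 515, 457 and 502 CPM in young and at 508, 312 and 421 CPM in aged libraries. The groups overlapped through aged library 1, and the log2 fold change was -0.25 (95% interval -0.69 to 0.19). Grm6 was at 123, 117 and 131 CPM in young and at 139, 86.1 and 113 CPM in aged libraries. Aged library 1 was the highest and aged library 2 the lowest of these 6 values, and the log2 fold change was -0.13 (95% interval -0.57 to 0.30). Nyx was at 12.8 to 16.1 CPM in young and 14.0 to 17.4 CPM in aged libraries, with a log2 fold change of 0.07.

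Isl1 was at 87.4, 80.0 and 87.1 CPM in young and at 76.0, 71.2 and 75.5 CPM in aged libraries. The groups did not overlap, and the log2 fold change of -0.19 (standard error 0.06) had an adjusted p of 0.062. Groups that did not overlap were found for 35.3% of all tested genes, and for 3 of the 9 (Cabp5, Gpr179 and Isl1). The other genes overlapped. Pcp2 had means of 74.2 ± 8.26 and 75.7 ± 4.84 CPM in young and aged retina (SD, n = 3). For Vsx1 the means were 26.1 ± 1.15 and 24.2 ± 6.21 CPM, and for Grik1 82.3 ± 3.28 and 76.3 ± 13.4 CPM. Over the 9 genes the median log2 fold change was -0.11, with 3 above 0 and 6 below (49.6% of all tested genes were below 0), beside a median of 0.0019 for all tested genes. With library totals in place of the TMM factors the median of all genes was 0.12, and that of the 9 genes became 0.0036, with 5 above 0 and 4 below.

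Among the aged libraries, library 2 was the lowest for 7 of the 9 genes (Vsx1, Grm6, Trpm1, Isl1, Grik1, Gpr179 and Nyx), as it was for 36.4% of all genes kept. Markers of other cell types moved with this library too. It was the highest aged library for 9 of 9 microglia markers, which summed to 196, 259 and 171 CPM in aged libraries 1 to 3, and the lowest for summed RPE markers (67.7 CPM, against 204 and 163 CPM). All 9 microglia markers rose in aged against young retina, with a median of 1.48 on the log2 scale, from a sum of 79.2 to 80.3 CPM in young, and the sum was 182 to 194 CPM in 8-AG treated libraries. The part of this in the bipolar values was not tested. The highest aged library exceeded the lowest by a factor of 1.73 for Gpr179, 1.64 for Vsx1, 1.63 for Trpm1 and 1.62 for Grm6, and the median of all genes was 1.18. For Isl1 this factor was 1.07, for Pcp2 1.13 and for Cabp5 1.17. The same ratio among the young libraries was 1.07 for Gpr179 and 1.13 for Trpm1. Gpr179, Vsx1, Trpm1, Grm6, Grik1 (1.43) and Nyx (1.25) thus varied more among aged libraries than the median gene. Isl1 and Pcp2 varied less, and Cabp5 was near the median. Leaving out aged library 2 brought the median of the 9 genes to 0.019, and leaving out aged library 1 to -0.24.

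Ratios of a pair of genes within a library do not depend on its scaling, and these were looked at after the values were known. Gpr179 relative to Trpm1 was 0.647, 0.697 and 0.678 in young, 0.594, 0.559 and 0.554 in aged and 0.536, 0.539 and 0.542 in 8-AG treated libraries. Grm6 relative to Trpm1 was 0.239 to 0.26 in young, 0.268 to 0.276 in aged and 0.242 to 0.28 in 8-AG treated libraries. These ratios are a description with no test, and they do not say which of a pair moved.

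The comparison of 8-AG treated with aged retina asks what the compound changes, though the RNA named in the labels differs between these groups as well. None of the 9 genes passed the adjusted test with edgeR or DESeq2, and 1 of them, Pcp2, had an unadjusted P under 0.05 with edgeR (2 with DESeq2), beside 3.67% of all tested genes with edgeR. Of 14631 tested genes, 0.0205% were called, all of them higher. Pcp2 was at 79.4, 77.6 and 70.2 CPM in aged and at 53.0, 64.7 and 63.4 CPM in 8-AG treated libraries. Every treated library lay below every aged one, which 3.96% of tested genes did, and the log2 fold change was -0.33 (standard error 0.10, edgeR unadjusted P = 0.0065, adjusted p = 0.996). All 9 log2 fold changes were below 0, as were 51.0% of those of all tested genes. Their range was -0.35 for Gpr179 to -0.04 for Isl1, and their median was -0.20 against -0.0031 for all genes. Most of the 9 genes varied together among libraries, Cabp5 not among them, so the 9 signs do not count as independent. Without aged library 1 the log2 fold changes of Vsx1 and Grik1 were 0.14 and 0.056, and without 8-AG library 3 they were 0.0094 and 0.071.

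Gpr179 was at 214, 192 and 152 CPM in the 8-AG treated libraries, which overlapped the aged values through aged library 2. Its 95% interval for the log2 fold change ran from -0.90 to 0.20. Trpm1 was at 399, 355 and 279.8 CPM, with an interval of -0.76 to 0.23, and Grm6 at 102, 99.4 and 67.7 CPM, with an interval of -0.89 to 0.23. Cabp5 was at 57.2, 60.7 and 51.6 CPM, between the young and the aged groups in mean, with an interval of -0.41 to 0.0011 against aged. Among the treated libraries, library 3 was the lowest for 6 of the 9 genes (Vsx1, Grm6, Trpm1, Cabp5, Grik1 and Gpr179), as it was for 35.7% of all genes kept. As folds, the interval of Gpr179 ran from 0.536 to 1.15 of the aged level, so a difference of that size could not be resolved at this spread.

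The treated and the young groups differ in age, in treatment and in the RNA named in the labels (total RNA and polyA RNA). This comparison also shares its libraries with the others. Gpr179 and Trpm1 were lower and Cabp5 higher in 8-AG treated than in young retina, where 7.78% of 14542 tested genes were called higher and 7.1% lower. Gpr179 fell by 0.83 on the log2 scale (standard error 0.12, adjusted p = 0.0032), to a fold of 0.562 of the young level. It also passed the rule of the study, as did 8.58% of tested genes, and its adjusted p was at most 0.030 in each alternative and each fit without 1 library. Trpm1 fell by 0.51 (standard error 0.13, adjusted p = 0.034), with every treated library below every young one. This call did not hold with library totals in place of TMM factors (adjusted p = 0.075), with the 3 groups in one fit (0.11), or without 8-AG library 2 (0.10) or any of young libraries 1 (0.095), 2 (0.062) or 3 (0.096). Cabp5 rose by 0.35 (standard error 0.09, adjusted p = 0.026), and the call was lost without young library 1 (adjusted p = 0.10), young library 2 (0.091) or 8-AG library 2 (0.11).

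For Grm6 this comparison gave -0.46 on the log2 scale (standard error 0.16, adjusted p = 0.11), with no overlap between the groups. It passed with DESeq2 (adjusted p = 0.0088) and without 8-AG library 3 (adjusted p = 0.025). Pcp2 (-0.30, adjusted p = 0.085) and Isl1 (-0.23, adjusted p = 0.078) also had groups that did not overlap and did not pass. In all, 5 of the 9 genes lay lower without overlap, against 17.7% of tested genes, and 1 lay higher without overlap, against 17.8%. Vsx1, Grik1 and Nyx overlapped, with log2 fold changes of -0.19, -0.18 and -0.07. Vsx1 passed without 8-AG library 1 (-0.32, adjusted p = 0.048). Of the pair with a TAATCC match in the promoter shown above, Trpm1 passed the test and Nyx had a 95% interval of -0.34 to 0.19.

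**Figure D2:**
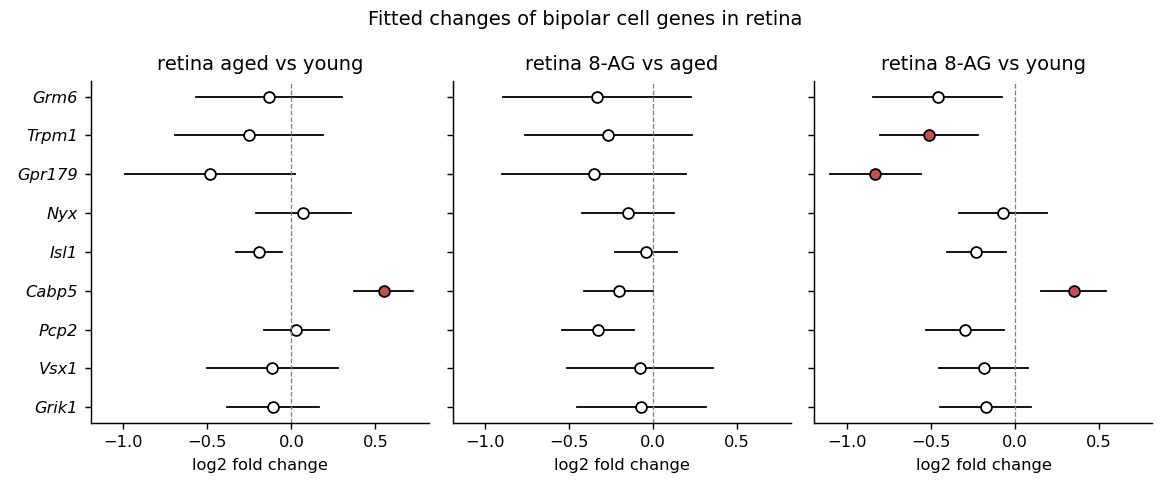
Fitted log2 fold change of each gene (point) with its 95% confidence interval (line) in the 3 comparisons of retina, each on 3 libraries against 3. Filled points have an adjusted p under 0.05, which are Cabp5 in aged against young and Trpm1, Gpr179 and Cabp5 in 8-AG treated against young.

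Genes that act beside these 9 were taken from lists of known roles. Of 6 partners of the mGluR6 cascade found by name, 1 rose and 2 fell in aged against young retina, where 7.29% of all tested genes were called higher and 7.26% lower. Gnb3, the G protein beta subunit of ON bipolar cells and cones, rose from 119, 121 and 128 CPM to 224, 275 and 204 CPM (log2 fold change 0.93, standard error 0.10, adjusted p = 7.9e-04). Lrit3, a leucine-rich repeat protein that brings nyctalopin and TRPM1 to the synapse, fell by 0.43 on the log2 scale (adjusted p = 0.015). Gnb5, the beta subunit that pairs with RGS proteins, fell by 0.39 (adjusted p = 0.013). Aged library 2, the lowest of the aged group for Grm6 and Trpm1, was the highest of the 9 libraries for Gnb3. In 8-AG treated against young retina Gnb3 again was higher (0.70) and Lrit3 lower (-0.53), and Gnao1, which encodes the alpha subunit that mGluR6 couples to, was lower (-0.28). The median of these 6 genes was -0.05 in aged against young retina and -0.20 in 8-AG treated against young retina.

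Of 10 bipolar transcription factors, 0 passed in aged against young retina with edgeR or DESeq2. With edgeR 1 and with DESeq2 2 of them had an unadjusted P under 0.05, beside 29.2% of all tested genes with edgeR. Their median log2 fold change was -0.14. In 8-AG treated against young retina the median was -0.13 and 2 of the 10 fell, beside 7.1% of all tested genes called lower. With DESeq2 2 passed, Lhx4 not among them. Lhx4, a LIM homeodomain factor of cone bipolar cells, fell by 0.52 with edgeR (adjusted p = 0.021). Lhx4 was at 11.2, 10.8 and 10.4 CPM in young and at 7.96, 7.42 and 7.22 CPM in treated libraries, which did not overlap. Of 11 subtype markers found, Prkca, the protein kinase C alpha of rod bipolar cells, fell by 0.32 in aged retina (adjusted p = 0.034), and Kcng4, a potassium channel subunit of type 5 cone bipolar cells and of some ganglion cells, rose by 0.87 (adjusted p = 0.013). In 8-AG treated against young retina 3 of the 11 fell, which were Cabp2 (-0.76), Prkca (-0.44) and Car8 (-0.27), beside the same 7.1%, and with DESeq2 2 passed, Cabp2 and Prkca. Prkca was at 397, 378 and 404 CPM in young, 346, 273 and 327 CPM in aged and 319, 287 and 261 CPM in treated libraries, so both older groups lay below the young one. The 6 subunits of GABA and glycine receptors at bipolar terminals had medians of -0.06 on the log2 scale in aged against young and -0.21 in 8-AG treated against young retina.

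Synaptic genes were taken as a pair of lists. Of 10 ribbon synapse genes, 4 fell in aged against young retina, Cplx4 (-0.85), Slc17a7 (-0.50), Ctbp2 (-0.41) and Stx3 (-0.31), and none rose, with a median of -0.24, beside 7.26% of all tested genes called lower. Of 8 photoreceptor proteins that face the bipolar dendrite or act at the rod and cone terminal, 4 fell, Cacnb2 (-0.49), Elfn1 (-0.40), Cabp4 (-0.37) and Lrit1 (-0.36), and the median was -0.31. Photoreceptors express many of these genes. Of 11 rod markers 9 fell in aged retina and of 9 cone markers 4 fell, and none of either rose; the part of this in the synaptic lists was not tested. In 8-AG treated against young retina 5 of the 10 ribbon synapse genes and 4 of the 8 photoreceptor partners fell, beside 7.1% of all tested genes called lower. With DESeq2 8 of the 10 and 5 of the 8 passed. In 8-AG treated against aged retina 0 of the 51 genes of these 6 lists passed with edgeR or DESeq2, and 5 had an unadjusted P under 0.05 with edgeR and 4 with DESeq2. Of all tested genes 0.0205% passed and 3.67% had such a P with edgeR.

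**Figure D3:**
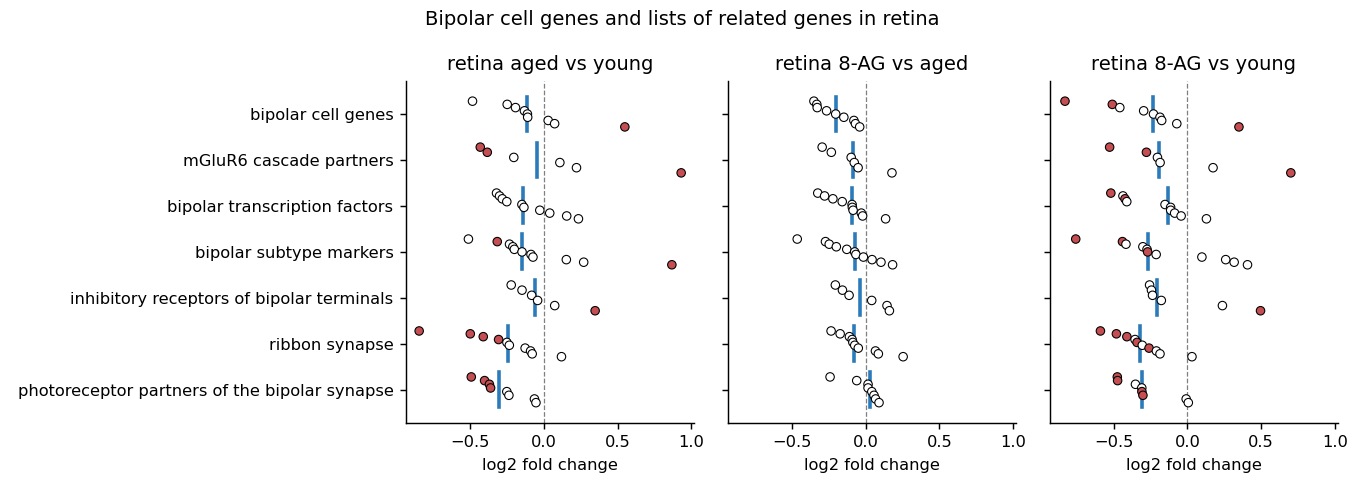
Log2 fold change of each tested gene (point) of the 9 bipolar cell genes and of 6 lists of related genes in the 3 comparisons of retina. Filled points have an adjusted p under 0.05 over all genes tested and the vertical bar is the list's median, which for ribbon synapse genes was -0.24 in aged against young retina.

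Most of the 9 genes were high or low in the same retina libraries. Over the 9 retina libraries, Trpm1 had a Pearson correlation of 0.97 with Grm6, 0.97 with Gpr179 and 0.91 with Grik1, and of -0.40 with Cabp5, as a description over libraries that also differ in age and treatment. Some pairs were weak, such as Pcp2 with Grik1 (0.12) and with Vsx1 (0.14). Against the mean standardized profile of the 9 genes, Grm6 had 0.96, Trpm1 0.94, Gpr179 0.89, Grik1 0.85 and Vsx1 0.82. Isl1 (0.66), Nyx (0.61) and Pcp2 (0.59) were less alike, and Cabp5 was at -0.18. Each of the 9 is part of this mean, which raises its own value, so these values do not compare with those of other genes. Of 13234 other genes, the 5 most like this profile were Rgs16 (0.98), Glra1 (0.97), Gabrr1 (0.95), Prpf18 (0.95) and Rnf128 (0.94), each over 9 libraries. Rgs16 encodes a regulator of G protein signaling, Glra1 a glycine receptor subunit and Gabrr1 the rho1 subunit of GABA receptors. Gabrr1 stood at 211, 180.0 and 214 CPM in young, 216, 163 and 192 CPM in aged and 179, 180.3 and 154 CPM in 8-AG treated libraries. It was chosen for its likeness to the profile, so its low values in aged library 2 and 8-AG library 3 are no separate observation.

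In RPE/choroid the 9 genes were also counted, and they differed far more between libraries than between groups. Young library 3, aged library 2 and 8-AG libraries 2 and 3 lay below the other 5 libraries for 8 of the 9 genes, the exception being Trpm1. These 4 were set by the widest gap in summed rod markers, and 14.3% of the 15809 genes tested in all 3 comparisons were lower in the same 4 without overlap. Grm6 was at 37.3, 20.0 and 1.30 CPM in young, 32.6, 0.884 and 75.2 CPM in aged and 78.3, 1.83 and 2.47 CPM in 8-AG treated libraries. Its highest library exceeded its lowest by a factor of 88.5, and the lowest held 30 counts. Pcp2 was at 103, 77.8 and 5.16 CPM in young, 134, 7.45 and 251 CPM in aged and 300.35, 5.39 and 13.8 CPM in treated libraries. For the other 6 the highest library exceeded the lowest by a factor of 51.9 (Isl1) to 97.1 (Grik1), and Gpr179 had as few as 5 counts in a library. The same 4 libraries had summed rod markers of 552 to 1823 CPM, against 10582 to 51268 CPM in the other 5, and summed amacrine markers of 57.2 to 353 CPM against 458 to 1612 CPM. The part of retinal RNA in these values was not tested.

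**Figure D4:**
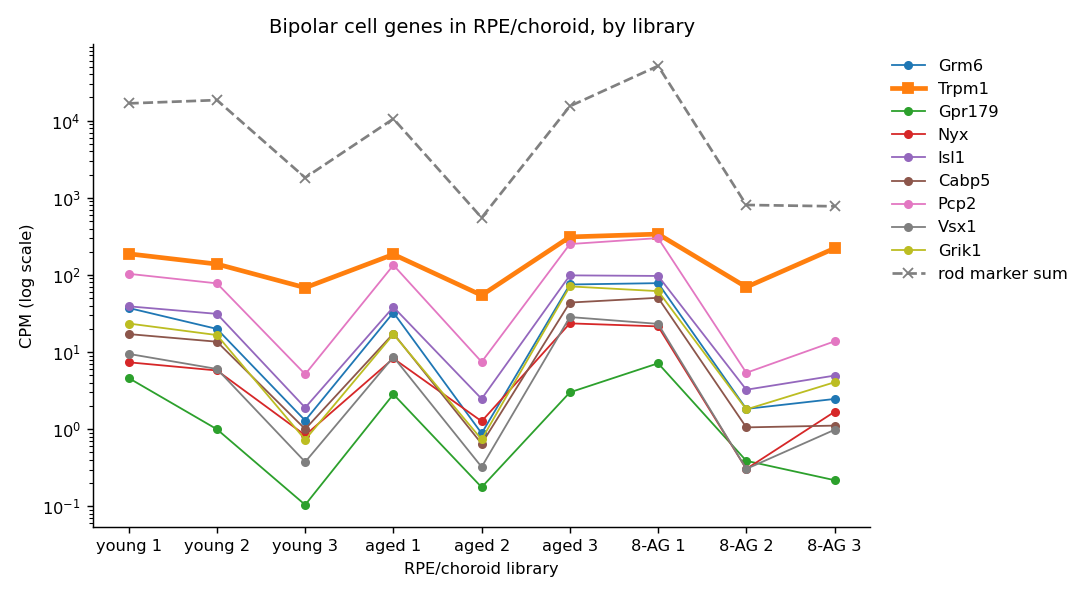
Level of the 9 genes and of the summed rod markers (11 genes) in each RPE/choroid library, in CPM on a log axis. Lines join the values of one gene across libraries as a guide and show no order. Grm6 ranges from 0.884 to 78.3 CPM, and Trpm1 from 54.5 to 339 CPM.

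Trpm1 was the exception in RPE/choroid. It was at 188, 138 and 68.4 CPM in young, 185, 54.5 and 311 CPM in aged and 339, 69.6 and 221 CPM in 8-AG treated libraries, and its highest library exceeded its lowest by a factor of 6.21. Relative to Grm6, Trpm1 was 3.58 to 4.18 in the 9 retina libraries. In RPE/choroid this ratio was 5.04, 6.93 and 52.7 in young, 5.67, 61.7 and 4.14 in aged and 4.33, 37.9 and 89.8 in treated libraries. The 4 libraries low in rod markers had the 4 highest ratios, and aged library 3 and 8-AG library 1 were near the retina values. Trpm1 is also known from melanocytes and other pigment cells, where it was first described as melastatin. The melanosome gene Pmel was at 6576, 7597 and 9374 CPM in young, 7774, 9139 and 3715 CPM in aged and 324, 8253 and 9441 CPM in treated libraries. Pmel was thus lowest in the library with the highest Grm6, 8-AG library 1, and second lowest in aged library 3, and Tyrp1 (343 and 1790 CPM) and Mlana (27.5 and 238 CPM) were lowest in the same 2 libraries. These 3 are melanosome genes, and the 10 genes of the RPE list did not move as one. Of the 10, 8-AG library 1 had the lowest level for 4 (Best1 was the other) and the highest for 5 (Rpe65, Lrat, Rgr, Ttr and Slc16a8). Aged library 2, low in the bipolar genes, had the lowest level for 6 of them. Across tissues the preparation and counting differed, so tissue and method cannot be told apart in these ratios.

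**Figure D5:**
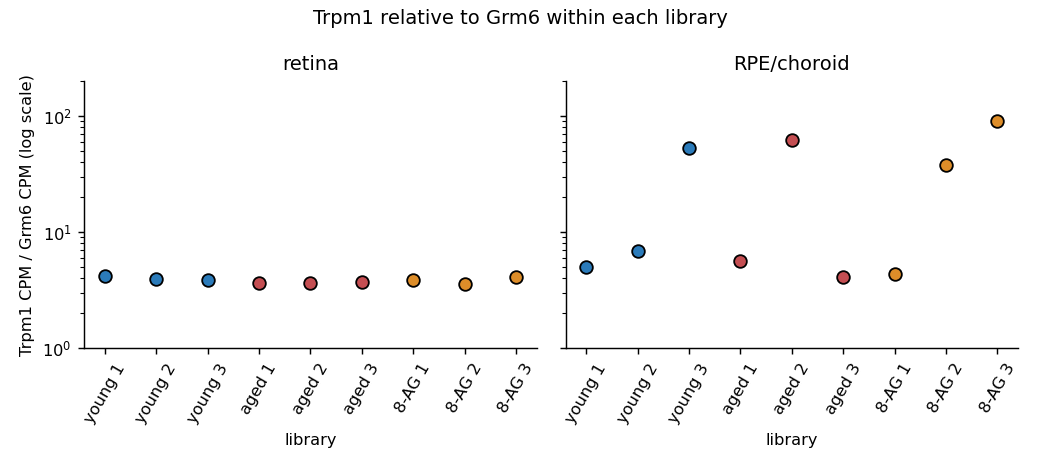
Trpm1 CPM divided by Grm6 CPM in each library of retina (left) and RPE/choroid (right), on a log axis. The ratio is 3.58 to 4.18 in retina and 4.14 to 89.8 in RPE/choroid, where young library 3, aged library 2 and 8-AG libraries 2 and 3 stand at 37.9 or more.

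The ratios of the other genes to Grm6 moved less among RPE/choroid libraries than Grm6 itself did. Cabp5 relative to Grm6 was 0.451 to 0.774 in RPE/choroid and 0.337 to 0.799 in retina. Vsx1 relative to Grm6 was 0.167 to 0.398 and 0.198 to 0.299 in the same order, and Grik1 0.523 to 1.65 and 0.637 to 0.867. Nyx spanned 0.167 to 1.43 in RPE/choroid and 0.0982 to 0.207 in retina. For Isl1, Gpr179 and Pcp2 the tissues did not overlap. Isl1 relative to Grm6 was 0.545 to 1.04 in retina and 1.05 to 2.8 in RPE/choroid. Gpr179 was 1.93 to 2.73 in retina and 0.0399 to 0.212 in RPE/choroid. Pcp2 was at 0.517 to 0.936 in retina and 2.77 to 8.43 in RPE/choroid.

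No RPE/choroid comparison passed the test for these genes. With edgeR 0 of the 9 passed in aged against young, in 8-AG treated against aged and in 8-AG treated against young, in each of which 0.0% of 16047, 16257 and 16215 tested genes were called. With DESeq2, which gave Gpr179 no P in 8-AG treated against aged and so tested 8 genes there and 9 in the others, 0 passed as well. None of those tested had an unadjusted P under 0.05 with either tool. With edgeR 2.13%, 1.69% and 2.1% of all tested genes had such a P in that order. All 11 rod markers themselves lay lower in aged than in young RPE/choroid (median log2 fold change -0.52, none passing). A fit at a fixed rod sum therefore does not separate age from rod content. With the summed rod markers as a covariate in aged against young, all 9 log2 fold changes were above 0, with a median of 1.65. All but Gpr179, 8 of the 9, then had an unadjusted P under 0.05 and passed the rule of the study, beside 10.3% of all tested genes with such a P and 5.71% that passed that rule higher, and none passed the adjusted test (adjusted p 0.25 to 0.72). With the summed amacrine markers as the covariate, added after the data were seen, the median was 0.090 and 1 of the 9 had such a P, beside 5.76% of all tested genes. The amacrine covariate gave, in 8-AG treated against aged, a median of -0.89, and Vsx1 (-1.32) and Nyx (-1.54) passed the rule of the study lower, as did 1.76% of tested genes, with an adjusted p of 0.996. None of the 9 had such a P in 8-AG treated against young with either covariate, or in 8-AG treated against aged with the rod covariate. The median log2 fold changes of the 9 were 0.95, -0.34 and 0.68 in that order. Single libraries set these values. The first became -0.21 without aged library 3, and the second became -3.50 without 8-AG library 1 and 0.83 without aged library 3. The third became -2.62 without 8-AG library 1. For Grm6 the 95% interval of the log2 fold change was -2.89 to 4.65 in aged against young and -4.97 to 4.30 in 8-AG treated against aged, and for Trpm1 it was -1.14 to 2.08 and -1.76 to 2.22. Whether the change with age or treatment differed between the tissues was not tested.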

How the data were processed

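RNA with an integrity number over 7 was taken from neural retina and RPE/choroid. For retina the authors deposited RSEM expected counts per gene, not normalized, which were rounded here. For RPE/choroid the authors deposited raw read counts per gene from libraries enriched for full-length transcripts; the counting program is not given in the sources used here. The processing notes of the submitters name Bowtie2 2.1.0, RSEM 1.2.15, edgeR and Rnor_6.0. The authors also deposited a TMM-normalized signal table of retina by symbol, used to pair symbols with identifiers and as an alternative level: counts times 1 factor per library matched it within 0.0433% for each of the 9 genes. Tables of the authors' own comparisons (fold change, P, FDR) gave names of RPE/choroid identifiers only. Names were found for 139 of 144 list genes.

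The 6 libraries of a comparison were fitted apart from the rest (edgeR 4.0.16, R 4.3.3) by filterByExpr, TMM, estimateDisp, glmQLFit with robust=TRUE and glmQLFTest. The adjusted p is Benjamini-Hochberg over all genes tested, with a threshold of 0.05. The standard error is the absolute log2 fold change over the square root of F, and intervals are 95%. The procedure was tested on simulated data. Levels are CPM over TMM factors of the 9 libraries of a tissue. Profiles used log2(CPM + 0.5). A test of 1 gene over 3 against 3 libraries by exact permutation could not go below p = 0.1. Libraries of RPE/choroid were ordered by summed rod markers and described on either side of the widest gap.

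The text names the 9 genes, list genes with an adjusted p under 0.05 in a retina comparison (at most 4 per list and direction, by size), and the 5 other genes with a mean log2 CPM of at least 1 whose profile was most alike. Some list genes that passed are left unnamed and not reported here. Pmel, Tyrp1, Mlana and the ratios were chosen after their values were seen. The 9 genes and the lists were chosen with earlier results of these data known. Replicate numbers did not pair retina libraries: correlations of same-numbered deviations ran from -0.25 to 0.22. Otx2 has a near-identical copy and is uncertain. Alternatives were RLE size factors, library totals, DESeq2 1.42.0, dropping the filter or asking for 10 counts in every library, fitting 3 groups together, robust=FALSE, a replicate block, unrounded counts, leaving out each library, and in RPE/choroid the sum of libraries sharing a label number and a rod marker covariate. An amacrine marker covariate was added after seeing the data. Python 3.11.15 with pandas 2.3.3 made the tables and matplotlib 3.10.9 the figures.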

Additional observations from a re-analysis of the deposited data

How the results depend on the processing

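Over the alternatives without a left-out library, the number of the 9 genes that passed in retina stayed within 1.5 times, and their median log2 fold change moved by less than the SD between libraries. Its sign changed once, with library totals in place of TMM factors, from -0.11 to 0.0036 in aged against young retina. The replicate block gave retina medians of -0.14, -0.20 and -0.23 (aged against young, 8-AG against aged, 8-AG against young), with 1, 0 and 3 genes passing; it changed no call on the 9 genes, and replicate numbers carry no pairing in these labels. In RPE/choroid the block medians were 0.16, -0.43 and 0.078. Over the other alternatives the RPE/choroid medians ran from 0.090 to 1.67, from -0.89 to -0.31 and from -0.80 to 1.04, the lowest in each case with the amacrine covariate. With 1 library left out, 1 to 2 genes passed in aged against young retina, 0 in 8-AG against aged and 1 to 4 in 8-AG against young. The RPE/choroid medians then ran from -0.21 to 1.72, from -3.50 to 0.83 and from -2.62 to 1.36 in the same order. Of the values of single genes under alternatives, 15 of 405 in retina and 60 of 456 in RPE/choroid changed sign, none of them past the threshold. Over all genes, calls in retina of 2122 (aged against young) and 2163 (8-AG against young) went as low as 1245 and 1026, both without young library 2. In 8-AG against aged retina the 3 calls became 18 with DESeq2, 10 with no filter and 0 with the replicate block, robust=FALSE or at least 10 counts in every library. In RPE/choroid the 0 calls became 34, 41 and 70 with DESeq2, and in aged against young 1 with the rod and 2 with the amacrine covariate. The cause of these shifts was not tested. Low counts limit single genes: in RPE/choroid Gpr179 had as few as 5 counts, in a library of 48203050, and could not be fitted under the filter of 10 counts in every library.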

Other observations

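Tacr3, the neurokinin receptor of some OFF bipolar cells, did not follow the other bipolar genes in RPE/choroid. It was at 7.74, 9.25 and 0.732 CPM in young, 7.00, 1.65 and 28.5 CPM in aged and 21.8, 0.806 and 294 CPM in 8-AG treated libraries. Library 3 of the treated group, at 294 CPM, stood above every other library, while Grm6 was at 2.47 CPM there. In retina Tacr3 was at 16.8 to 24.7 CPM in all 9 libraries. Its log2 fold change in 8-AG treated against young RPE/choroid was 4.16 with a standard error of 2.08 (edgeR unadjusted P = 0.095), and it did not pass.

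Gnb3 in RPE/choroid had the same low libraries as the 8 genes other than Trpm1. Gnb3 was at 80.5, 55.6 and 4.89 CPM in young, 114, 5.07 and 306.5 CPM in aged and 322, 5.28 and 16.7 CPM in treated libraries.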
